A study of Mus musculus with 146 samples.

Results

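The cells described here are germ cells of the newborn mouse ovary with abundant Sohlh1 mRNA and Zp3 mRNA below 1 TPM, and they are split by Zp2. Cells were taken when Ddx4, a germ cell RNA helicase, stood at 1 TPM or more, Sohlh1 at 100 TPM or more and Zp3 below 1 TPM, where TPM (transcript number scaled to the same total in every cell) compares genes per length. The 146 libraries of the series hold 7 pairs that were each counted as 1 cell. All cells but 1 passed the Ddx4 limit and 66 passed all 3 limits. Among these, 30 cells had Zp2 at 20 TPM or more (Zp2-on), 34 had Zp2 below 5 TPM (Zp2-off), and 2 lay between the limits. Another 49 cells passed the Ddx4 and Sohlh1 limits and had Zp3 at 1 TPM or more (Zp3-positive), and their levels are given for comparison. The cells were thus chosen by their levels of Ddx4, Sohlh1, Zp3 and Zp2, and the values of these genes are descriptions.

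Ovaries (n = 5) of newborn female C57/BL6J pups from a single litter, aged 0.5 days, were digested with trypsin, and oocytes were collected with a mouth pipette and sequenced by Smart-seq2, which copies whole polyadenylated transcripts of a single cell. No treatment or genotype distinguishes the cells, and amplified cDNA that was positive for Foxl2, a pregranulosa gene, had been removed before sequencing. The labels do not tie a cell to a pup, so all cells count as 1 sample, cells are not replicates, and no test, p-value or standard error is given for any difference. Intervals are exact (Clopper-Pearson for shares, Poisson for reads, 95%) and cover counting error only. A count of 0 is read with the share that 3 counts of the total would give, which is up to 10.0% for 0 of 30 Zp2-on cells and up to 8.82% for 0 of 34 Zp2-off cells throughout.

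Libraries were compared before any cell was counted, and 7 pairs of the 146 libraries shared their transcripts. Across coding genes the log2(TPM + 1) values of these pairs had a Pearson correlation of 0.991 to 0.997, against at most 0.879 in every other pair. Their read counts differed more than sampling alone gives, with a chi-square of 1.59 to 4.21 per degree of freedom, but the next most alike pair stood at 202. Each pair was counted as 1 cell, with mean TPM and summed reads. The pairs gave 1 Zp2-on cell, 4 Zp2-off cells and 1 cell between the limits. The last pair had Zp3 at 0.865 and 1.37 TPM, on either side of the limit, and with its mean of 1.12 TPM it fell among the Zp3-positive cells.

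The zona pellucida is the glycoprotein coat that an oocyte lays down around itself, and in the mouse it is built from the products of Zp1, Zp2 and Zp3. FIGLA, a basic helix-loop-helix factor of germ cells, is required for transcription of the zona genes and for primordial follicle formation. SOHLH1, a second factor of that class, and the homeodomain proteins NOBOX and LHX8 act at the same time, when cysts of connected germ cells break down and single oocytes are enclosed by pregranulosa cells. In the newborn ovary germ cells in cysts and oocytes in follicles lie side by side, so single cells can show which oocyte mRNAs are found together.

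Zp2 was found without Zp3 far more often than Zp3 without Zp2. With 20 TPM as the limit for both genes, 36 of the cells that passed the Ddx4 and Sohlh1 limits held Zp2 alone, 3 held Zp3 alone, 37 held both and 39 held neither. Over all Ddx4-positive cells the counts were 40, 4, 39 and 55. There, 50.6% of Zp2 cells lacked Zp3 (95% interval 39.1% to 62.1%), whereas 9.30% of Zp3 cells lacked Zp2 (2.59% to 22.1%). The Zp2-on cells make up 30 of the 36 cells with Zp2 alone, and the other 6 had Zp3 between 1 and 20 TPM.

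**Figure D1:**
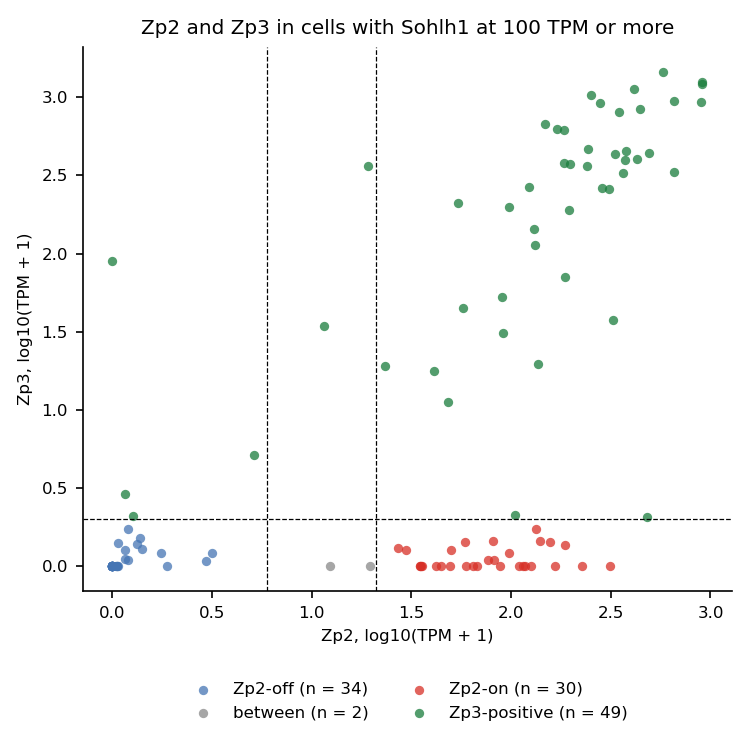
Zp2 against Zp3 in the cells with Ddx4 at 1 TPM or more and Sohlh1 at 100 TPM or more, each axis as log10(TPM + 1). Each point is a cell, dashed lines mark 1 TPM of Zp3 and 5 and 20 TPM of Zp2, and the 30 Zp2-on cells lie along the bottom right, where Zp3 is below 1 TPM.

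The 3 cells with Zp3 alone had Zp3 at 88.2, 363 and 33.5 TPM, with Zp2 at 0, 18.2 and 10.6 TPM. In the cell of 88.2 TPM no Zp2 was measured at all, while in the other 2 cells Zp2 lay below the limit but above 10 TPM. Read by the level of Zp3, Zp2 reached 20 TPM in 6 of 9 cells with Zp3 from 1 to 20 TPM, in 5 of 7 cells from 20 to 100 TPM and in 32 of 33 cells above that. Zp1 was mostly found with the other two. Of the 31 Ddx4-positive cells with Zp1 at 20 TPM or more, 29 also held Zp2 and 26 also held Zp3 at that level. Without Zp3, Zp1 was at 1 TPM or more in 3 of 30 Zp2-on and 1 of 34 Zp2-off cells, against 32 of 49 Zp3-positive cells, and its log2 ratio of 1.20 between the first 2 sets lay between 0.71 and 2.59 with any 1 cell left out and went to −0.67 among cells with little globin mRNA.

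Zp2 (chr7:120126772-120145291, GRCm38, minus strand) ranged from 26.2 to 311 TPM in Zp2-on cells, with a median of 78.2 TPM, and from 0 to 2.15 TPM in Zp2-off cells, with a median of 0. The lowest values inside the upper limit were 26.2, 28.6 and 33.998 TPM, the 2 cells between the limits stood at 11.4 and 18.5 TPM, and the highest values below the lower limit were 0.895, 1.94 and 2.15 TPM. The Zp2-on cells held 50109 Zp2 reads, with at least 233 in each, and 18 of the 34 Zp2-off cells held none. Of Zp3 (chr5:135980099-135988624, GRCm38, plus strand), the same cells held 41 reads (95% interval 29.4 to 55.6) and 28 reads (18.6 to 40.5). The highest Zp3 values taken were 0.736 and 0.743 TPM, and the lowest left out were 1.06 and 1.09 TPM. In Zp3-positive cells Zp2 had a median of 194 TPM and Zp3 of 325 TPM, and the 2 genes had a Spearman correlation of 0.70 across those 49 cells.

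The limit on Sohlh1 left out 23 germ cells. Of these, 6 had Zp2 at 20 TPM or more, 4 of them with Zp3 below 1 TPM, and 15 had Zp2 below 5 TPM and Zp3 below 1 TPM. The lowest Sohlh1 values taken were 100.5 and 107.6 TPM and the highest left out were 49.8 and 80.1 TPM. Zp2 without Zp3 was thus also found in cells below the Sohlh1 limit.

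Expression across all other genes was set side by side as the log2 ratio of mean TPM in Zp2-on over Zp2-off cells, with 1 TPM added to both means, which understates the difference of low genes. Of 12045 coding genes with a mean of 1 TPM or more in either set, 1043 (8.66%) were at least 2-fold higher in Zp2-on cells and 1207 (10.0%) at least 2-fold lower, and the median log2 ratio was −0.03. These counts depend on the scale and the cells, with 366 higher and 710 lower by the difference of mean log2(TPM + 1), 1222 and 974 per spike-in TPM, and 1764 and 1559 among cells with little globin mRNA. Counts of listed genes are read against these shares. Many transcripts were found in only a few cells, and a ratio can then move when any 1 cell is left out, for which ranges are given with the genes.

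**Figure D2:**
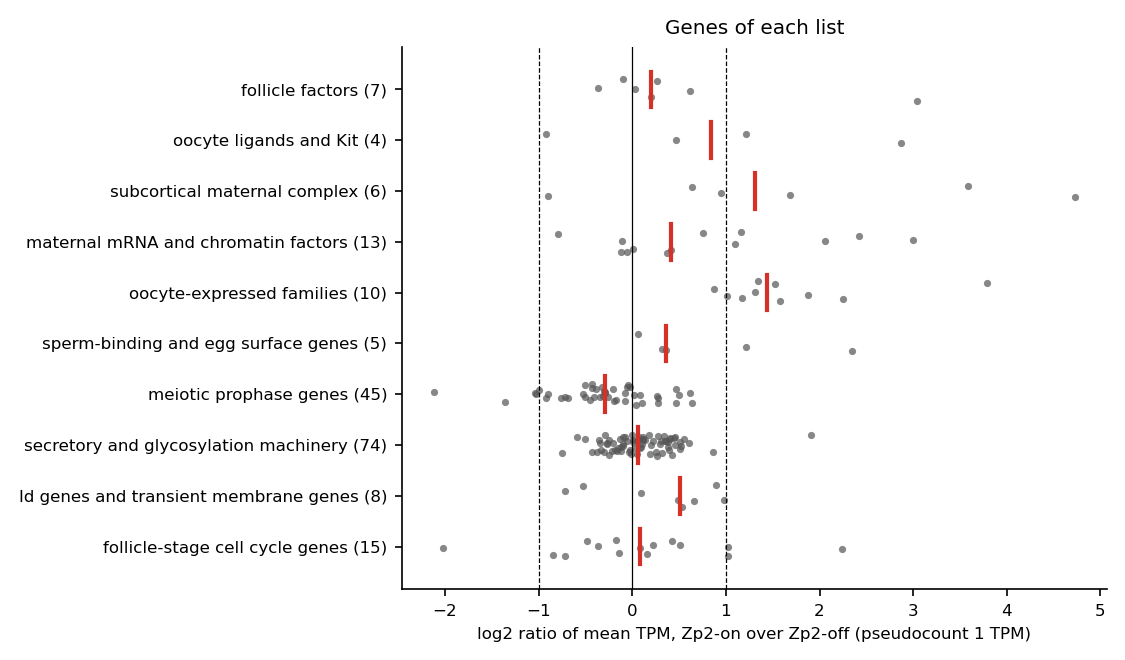
Log2 ratio of mean TPM, Zp2-on over Zp2-off cells, with a pseudocount of 1 TPM, for each gene of 10 lists with a mean of 1 TPM or more in either set. Points are genes, red bars are list medians and dashed lines mark 2-fold. The medians run from −0.29 for meiotic prophase genes to 1.43 for oocyte-expressed families, which is 0.15 with no filter on the mean.

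Figla and Lhx8 were near the same level with and without Zp2, while Nobox was higher with it. Figla ranged from 9.31 to 3203 TPM in Zp2-on cells (median 1754) and from 292 to 3849 TPM in Zp2-off cells (median 1571), a log2 ratio of 0.20. Sohlh1, which the rule holds above 100 TPM, had medians of 371 and 348 TPM. Lhx8 had medians of 767 TPM in Zp2-on and 610.2 TPM in Zp2-off cells and was above 100 TPM in every cell of both sets. The sets overlapped over nearly their whole range for each of these genes.

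Nobox had the largest ratio among the factors found in most cells of both sets. It ranged from 12.4 to 771 TPM in Zp2-on cells (median 390.1) and from 0 to 711 TPM in Zp2-off cells (median 213), and was at 1 TPM or more in 30 of 30 and 31 of 34 cells. Its log2 ratio was 0.62, and 0.56 to 0.71 with any 1 cell left out, and the difference of mean log2(TPM + 1) was 1.16. The log2 ratio was 0.45 among cells with little globin mRNA. Sohlh2, the partner of SOHLH1 in germ cells, had means of 89.4 and 87.7 TPM in Zp2-on and Zp2-off cells, Foxo3, which keeps primordial oocytes dormant, 96.1 and 103.2 TPM, and Taf4b, a germ cell subunit of the general transcription factor TFIID, 25.4 and 33.1 TPM. In Zp3-positive cells the means of Figla (1393 TPM), Lhx8 (464 TPM), Sohlh2 (60.6 TPM) and Taf4b (13.6 TPM) were below those of both other sets.

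Tbpl2, the oocyte form of the TATA-binding protein that replaces TBP in growing oocytes, had another pattern. It was at 1 TPM or more in 6 of 30 Zp2-on cells, up to 100.6 TPM, and in 0 of 34 Zp2-off cells, which allows a share of up to 8.82%. The highest value in a Zp2-off cell was 0.152 TPM. In Zp3-positive cells 30 of 49 reached 1 TPM, with a mean of 30.4 TPM. Of the 7 factors other than Sohlh1, Tbpl2 was the 1 at least 2-fold higher, none was 2-fold lower and the list median was 0.20. That median was 0.05 by the difference of mean log2(TPM + 1) and 0.51 per spike-in TPM. Tbpl2 reached the mean of 1 TPM through Zp2-on cells alone, and by the difference of mean log2(TPM + 1) it lay below 2-fold at 0.83 and Nobox above it.

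**Figure D3:**
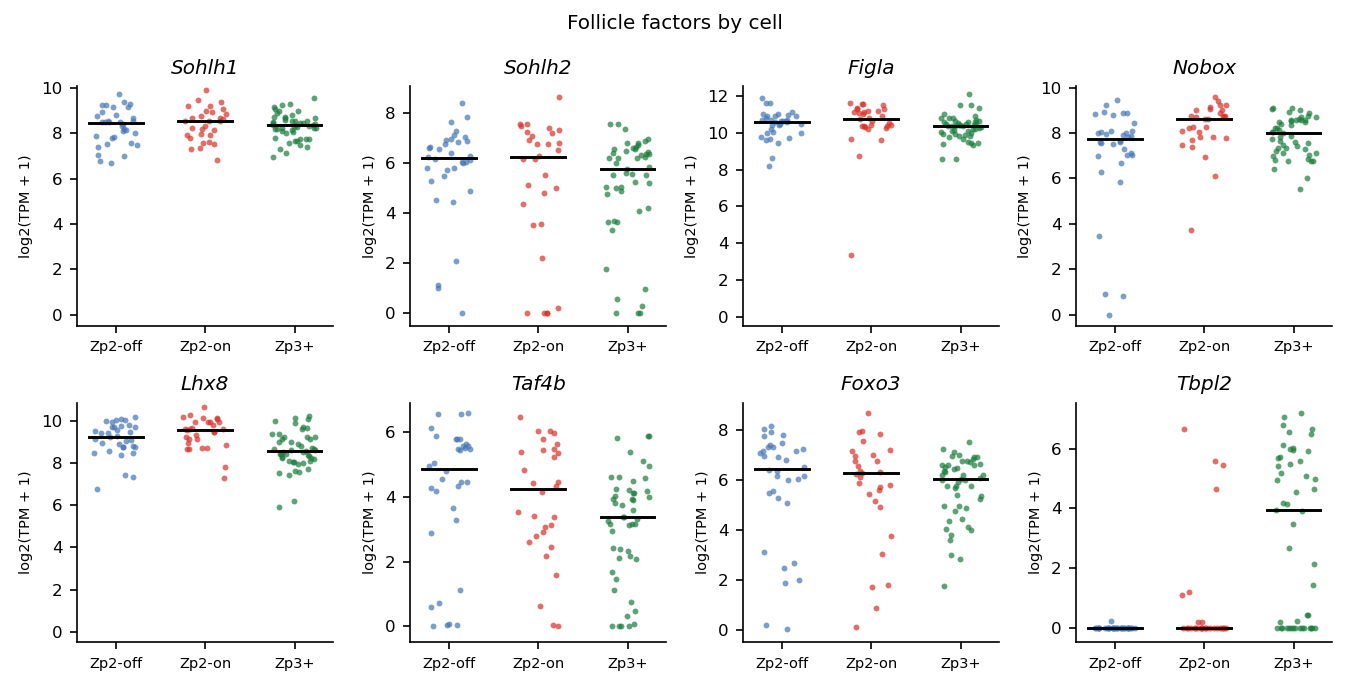
Follicle factors as log2(TPM + 1) in 34 Zp2-off, 30 Zp2-on and 49 Zp3-positive cells. Points are cells and bars are medians. The Zp2-off and Zp2-on cells overlap for Sohlh1, Sohlh2, Figla, Nobox, Lhx8, Taf4b and Foxo3, while Tbpl2 is above 1 TPM in 6 Zp2-on cells and in no Zp2-off cell.

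The level of Zp2 was also set beside each factor within the 30 Zp2-on cells, whose range of Zp2 and Sohlh1 the choice of cells cuts off from below. The Spearman correlation with Zp2 was 0.36 for Figla, 0.30 for Sohlh1, 0.23 for Lhx8 and 0.06 for Nobox, and 0.02 for the number of reads. The share of spike-in reads, which is lower where a cell holds more RNA, had a correlation of −0.37. These are descriptions over cells of 1 sample.

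The bases before the start of Zp3 and of 4 genes that were higher in Zp2-on cells are printed to show which letters these factors can bind. Zp1 and Zp2 had no entry among the promoter sequences used and are not printed. Basic helix-loop-helix factors bind CANNTG, and NOBOX binds TAATTG or TAATTA. The 250 bases before the RefSeq start (GRCm38.p6) were searched for all 3 words on both strands, no match overlaps another, and capitals mark the matches. The genes are Zp3 (chr5:135979855-135980104, plus strand), Tbpl2 (chr2:24096596-24096845, minus strand), Padi6 (chr4:140742644-140742893, minus strand), Nlrp4f (chr13:65205717-65205966, minus strand) and Ldhb (chr6:142507958-142508207, minus strand), each printed 5′ to 3′ on its own strand.
Zp3: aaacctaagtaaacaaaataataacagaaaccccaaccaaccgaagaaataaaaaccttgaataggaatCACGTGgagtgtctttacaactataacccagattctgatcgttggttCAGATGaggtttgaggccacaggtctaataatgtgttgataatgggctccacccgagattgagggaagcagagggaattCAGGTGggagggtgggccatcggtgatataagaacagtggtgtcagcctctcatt
Tbpl2: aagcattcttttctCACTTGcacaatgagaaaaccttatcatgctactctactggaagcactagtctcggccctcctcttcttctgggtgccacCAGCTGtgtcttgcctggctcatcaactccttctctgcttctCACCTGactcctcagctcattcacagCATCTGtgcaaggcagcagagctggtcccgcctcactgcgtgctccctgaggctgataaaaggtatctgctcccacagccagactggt
Padi6: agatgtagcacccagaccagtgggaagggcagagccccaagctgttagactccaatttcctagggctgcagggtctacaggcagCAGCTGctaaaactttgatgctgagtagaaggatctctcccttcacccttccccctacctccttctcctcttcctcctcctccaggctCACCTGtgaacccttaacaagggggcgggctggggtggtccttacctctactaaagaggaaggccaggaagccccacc
Nlrp4f: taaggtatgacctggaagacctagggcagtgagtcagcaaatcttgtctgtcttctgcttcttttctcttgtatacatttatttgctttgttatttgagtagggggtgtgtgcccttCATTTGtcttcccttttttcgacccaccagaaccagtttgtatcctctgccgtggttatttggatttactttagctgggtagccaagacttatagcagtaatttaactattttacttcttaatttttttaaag
Ldhb: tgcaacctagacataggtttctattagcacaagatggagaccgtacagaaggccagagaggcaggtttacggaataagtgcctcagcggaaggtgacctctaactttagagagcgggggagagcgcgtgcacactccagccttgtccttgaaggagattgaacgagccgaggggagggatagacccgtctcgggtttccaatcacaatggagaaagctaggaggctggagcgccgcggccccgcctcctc

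Zp3 holds 3 CANNTG words, which begin between 181 and 55 bases before the start. Tbpl2 holds 4, Padi6 holds 2, Nlrp4f holds 1 and Ldhb holds none, and none of the 5 holds TAATTG or TAATTA. Of 32817 RefSeq promoters of this length, 66.2% hold CANNTG, 7.17% hold TAATTG and 4.84% hold TAATTA. Among promoters of genes at least 2-fold higher in Zp2-on cells the shares were 65.3%, 5.92% and 4.30%, and among those at least 2-fold lower 60.7%, 4.00% and 2.78%. A word is a match of letters in this window and not a bound site.

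Among oocyte genes, Ldhb and Nlrp4f were found in most Zp2-on cells. Ldhb, the heart form of lactate dehydrogenase and abundant in oocytes, ranged from 0 to 2287 TPM in Zp2-on cells (median 201) and from 0 to 725 TPM in Zp2-off cells (median 6.92). Nlrp4f, of an oocyte family of NLR proteins, ranged from 0 to 882 TPM (median 152) and from 0 to 447 TPM (median 0.161). Their log2 ratios were 2.34 and 2.26, with overlapping ranges. At 20 TPM or more, both genes were found together in 24 of 30 Zp2-on cells (80%, 61.4% to 92.3%), in 8 of 34 Zp2-off cells (23.5%, 10.7% to 41.2%) and in 47 of 49 Zp3-positive cells. Zp2-off cells were therefore mixed, since 16 of the 34 held neither gene at that level.

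The subcortical maternal complex, a protein assembly under the oocyte membrane that embryos need at their first divisions, had 6 of 7 genes measured, of which 3 were at least 2-fold higher, none was 2-fold lower and the median log2 ratio was 1.32. Nlrp5, also called Mater, had the largest ratio of means in the list at 4.73 (4.30 to 5.45 with any 1 cell left out). By the difference of mean log2(TPM + 1), Nlrp5 stood at 2.39 and Zbed3 above it at 2.82. Nlrp5 was at 1 TPM or more in 13 of 30 Zp2-on cells, up to 915 TPM, in 4 of 34 Zp2-off cells, up to 56.3 TPM, and in 18 of 49 Zp3-positive cells, up to 553 TPM. Its mean was 107.6 TPM in Zp2-on cells and 57.96 TPM in Zp3-positive cells. Most cells of each set were below 1 TPM of Nlrp5, with medians of 0.0596, 0.0184 and 0.0675 TPM.

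Zbed3 was found more evenly. It ranged from 0 to 709 TPM in Zp2-on cells (median 143.6) and from 0 to 345 TPM in Zp2-off cells (median 29.4), a log2 ratio of 1.69, with 29 of 30 and 24 of 34 cells at 1 TPM or more. Padi6, a peptidylarginine deiminase needed for the cytoplasmic lattices of oocytes, had a mean of 67.4 TPM in Zp2-on and 4.69 TPM in Zp2-off cells, but a single Zp2-on cell stood at 1199 TPM and the log2 ratio of 3.59 ranged from 2.37 to 5.68 with any 1 cell left out. Padi6 had a median of 0.265 TPM in Zp2-on cells and of 541 TPM in Zp3-positive cells.

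Tle6 and Ooep were already present in most Zp2-off cells. Tle6 had medians of 237 and 178 TPM in Zp2-on and Zp2-off cells (log2 ratio 0.94), and Ooep of 23.4 and 16.8 TPM (0.64). Khdc3, another member, had the lowest log2 ratio of the list at −0.90. It was at 1 TPM or more in 2 of 30 and 2 of 34 cells and in 20 of 49 Zp3-positive cells. The members of 1 complex were thus found in unequal shares of Zp2-on cells.

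**Figure D4:**
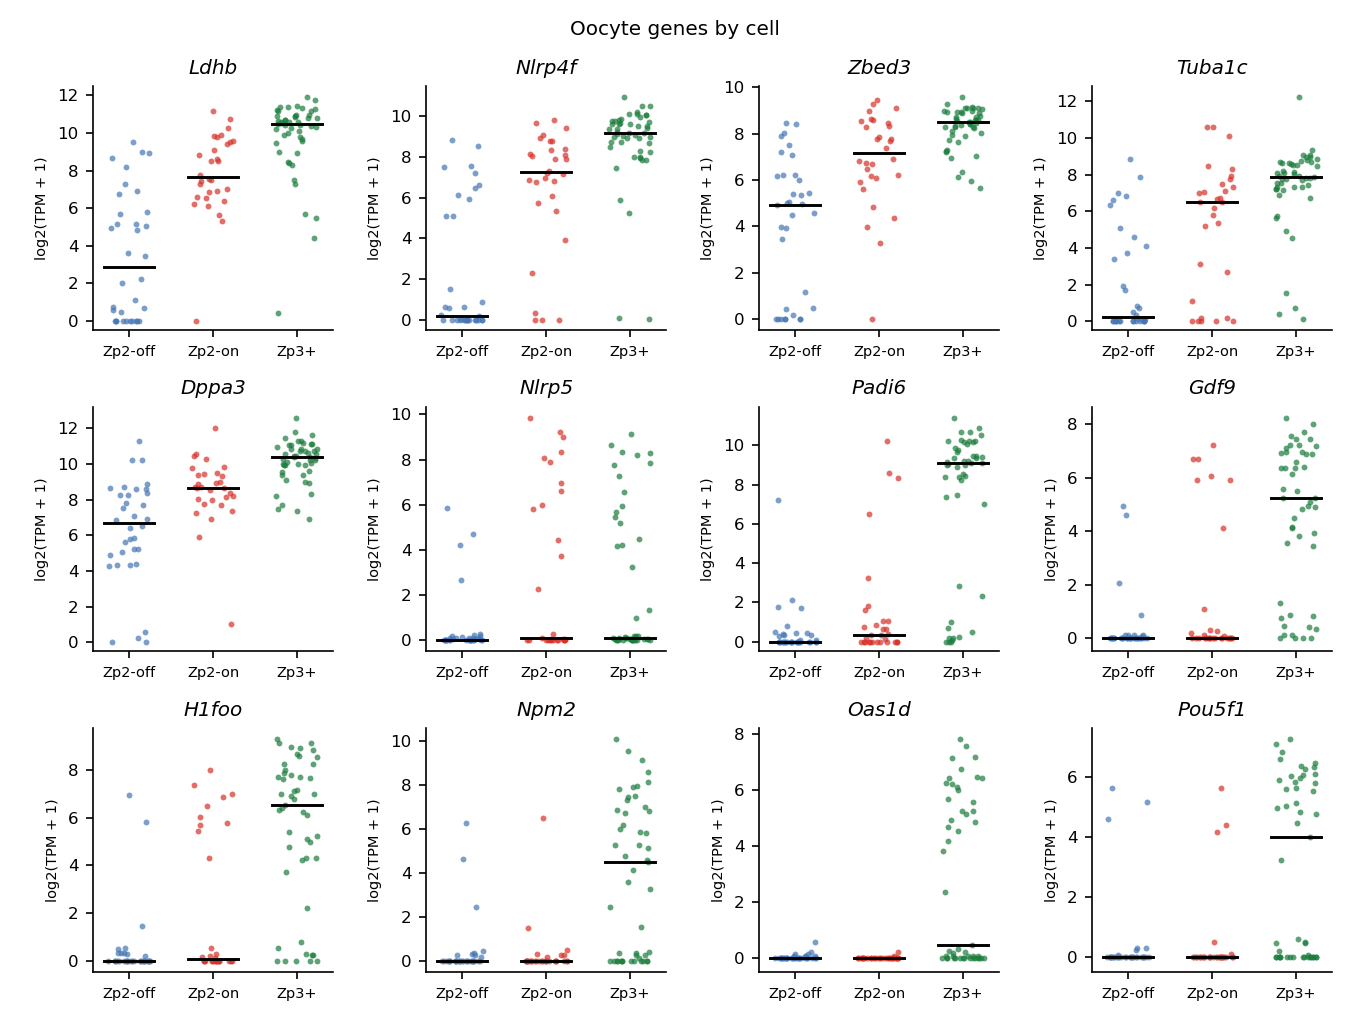
Oocyte genes as log2(TPM + 1) in 34 Zp2-off, 30 Zp2-on and 49 Zp3-positive cells. Points are cells and bars are medians. Ldhb, Nlrp4f and Zbed3 are present in most Zp2-on cells, Nlrp5, Gdf9 and H1foo in 13, 8 and 10 of 30, and Oas1d in none at 1 TPM or more.

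Of the signals between oocyte and follicle, Kit, the receptor that oocytes carry for pregranulosa KIT ligand, ranged from 26.6 to 630.0 TPM in Zp2-on cells (median 157) and from 0.0447 to 467 TPM in Zp2-off cells (median 134.4), a log2 ratio of 0.47. Gdf9, a growth factor that oocytes secrete to their granulosa cells, was at 1 TPM or more in 8 of 30 Zp2-on, 3 of 34 Zp2-off and 37 of 49 Zp3-positive cells. Its means were 18.5, 1.66 and 68.5 TPM, and the log2 ratio was 2.87 (2.50 to 3.42 with any 1 cell left out). Bmp15, which acts with GDF9, reached 1 TPM in 1 Zp2-on cell, in 0 of 34 Zp2-off cells and in 12 of 49 Zp3-positive cells. Bmp6 and Fgf8 were each above 1 TPM in at most 2 cells of either set. Bmp6 reached the mean of 1 TPM through Zp2-on cells alone, so it could only count as higher, and Fgf8 through Zp2-off cells alone. Gdf9 and Bmp6 were the 2 of 4 measured genes of this list at least 2-fold higher, none was 2-fold lower and the list median was 0.84. That median lay between 0.47 and 1.31 with any 1 cell left out. It was 0.58 with no filter on the mean and 0.19 among cells with Zp3 below 0.1 TPM. The ratio of Bmp6 went from 1.22 to −0.024 without 1 cell.

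Maternal mRNA and chromatin factors divided into genes found in all sets, genes higher in Zp2-on cells and genes found in Zp3-positive cells. Of 13 measured, 5 were at least 2-fold higher, none was 2-fold lower and the median log2 ratio was 0.41 (0.33 to 0.73 with any 1 cell left out, and 0.67 among cells with little globin mRNA). Mos reached the mean of 1 TPM through Zp2-on cells alone. Dppa3, or Stella, which protects the maternal genome from demethylation, ranged from 1.06 to 4199 TPM in Zp2-on cells (median 407) and from 0 to 2527 TPM in Zp2-off cells (median 102.8). Zfp57, a keeper of imprints, had medians of 128.5 and 37.5 TPM. H1foo, the oocyte linker histone, was at 1 TPM or more in 10 of 30 and 3 of 34 cells, Btg4, needed to clear maternal mRNA, in 5 and 3, and Mos, the kinase that holds eggs in metaphase, in 6 and 0. Ybx2 and Cpeb1, which bind stored mRNA, were in every cell of both sets, with log2 ratios of 0.41 and −0.06.

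Several oocyte genes were present in Zp3-positive cells and near 0 in Zp2-on cells. Npm2, a histone chaperone of eggs, had means of 3.16 TPM in Zp2-on, 3.14 TPM in Zp2-off and 107.8 TPM in Zp3-positive cells, and was at 1 TPM or more in 2 of 30, 3 of 34 and 30 of 49. Pou5f1, or Oct4, had means of 2.89, 3.20 and 32.7 TPM. Oas1d, an inactive oligoadenylate synthetase of oocytes, reached 1 TPM in 0 of 30 and 0 of 34 cells, which allows shares of up to 10.0% and 8.82%, and in 24 of 49 Zp3-positive cells. Its paralog Oas1e was at 1 TPM or more in 6 of 30 Zp2-on cells, up to 92.7 TPM, in 0 of 34 Zp2-off cells and in 31 of 49 Zp3-positive cells. The 2 paralogs are alike in sequence, and reads could have been split between them.

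The oocyte-expressed families, among them Nlrp, Oas1, Oosp, Oog and Obox genes, had 27 of 30 listed symbols in the files, of which 10 reached a mean of 1 TPM in either set. A gene at 0 in Zp2-off cells could pass that limit only through Zp2-on cells. Of the 10, 9 were at least 2-fold higher, Tcl1 lay below 2-fold at 0.87, and the median log2 ratio was 1.43, against 0.15 over the listed genes with no filter on the mean. Nlrp4b and Nlrp4e owed their ratios to 1 cell each. Oas1h, Bcl2l10 and Nlrp14 were at 1 TPM or more in 5, 6 and 4 of 30 Zp2-on cells, in 1, 2 and 1 of 34 Zp2-off cells and in 29, 33 and 32 of 49 Zp3-positive cells. Most Oosp, Oog and Obox genes were below 1 TPM in the mean of each set.

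Different Zp2-on cells held different oocyte genes. Across 12 genes, chosen after their values were seen from genes higher in Zp2-on than in Zp2-off cells (Gdf9, Tbpl2, Mos, Oas1e, H1foo, Btg4, Padi6, Nlrp5, Bcl2l10, Nlrp14, Oas1h and Zp1), a Zp2-on cell held between 0 and 7 at 1 TPM or more, with a median of 2. Nlrp5 was the most frequent with 13 cells and Zp1 the least with 3, and 6 of the 30 cells held none of the 12. That choice fixes a lower count in Zp2-off cells, which is not compared. Zp3-positive cells held between 1 and 12 with a median of 9, and 31 of 49 held 8 or more, against 0 of 30 Zp2-on cells.

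Over the 55 oocyte genes of the ligand, complex, maternal and family lists in the files, Kit included and zona genes not, Zp2-on cells held 10 to 24 at 1 TPM or more (median 15), Zp2-off cells 7 to 17 (median 12) and Zp3-positive cells 13 to 36 (median 26). After each cell was thinned to 4000000 reads, and with 10 reads as the limit, the medians were 14.5, 11 and 24. The order of the medians was the same after thinning, although the thinned cells still differed in all genes detected, with medians of 11036 in Zp2-on, 11207 in Zp2-off and 13029 in Zp3-positive cells. The ranges of Zp2-on and Zp2-off cells overlapped. The lists were chosen with earlier results of these data known and hold most of the 12 genes above. The medians of Zp2-on and Zp2-off cells are thus descriptions and give no separate support.

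The list of sperm-binding and egg surface genes, which also holds the cytosolic enzyme gene Ldhb, gave 2 of 5 measured at least 2-fold higher, Ldhb and Cd9. Its median log2 ratio was 0.36, which lay between 0.32 and 0.95 with any 1 cell left out and was 1.01 among cells with little globin mRNA. Cd9, a tetraspanin needed for sperm fusion, ranged from 0 to 872 TPM in Zp2-on cells (median 177) and from 0 to 261 TPM in Zp2-off cells (median 93.1). Izumo1r, or Juno, the sperm receptor, was at 1 TPM or more in 9 of 30 and 7 of 34 cells, with a log2 ratio of 0.36. Astl, which encodes the enzyme ovastacin that cleaves ZP2 after fertilization, reached 1 TPM in 0 of 30 and 0 of 34 cells and in 14 of 49 Zp3-positive cells.

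The genes with the largest ratios that did not rest on few cells were not all oocyte genes. By the rule for named genes 93 genes were higher and 110 lower, and those with the largest ratios, at most 12 in each direction, are named. Higher in Zp2-on cells were Aven, an inhibitor of apoptosis (log2 ratio 3.14), Tuba1c, an alpha-tubulin (2.61), Ocln, of tight junctions (2.59), Lmna, which encodes A-type lamins (2.53, and 1.80 to 2.76 with any 1 cell left out), Th, the first enzyme of catecholamine synthesis (2.43), Pinlyp (2.35), Ldhb, Nlrp4f, Snx9, a membrane-shaping protein of endocytosis (2.25), Sox15 (2.25), Hhat, which palmitoylates hedgehog proteins (2.17), and Slc41a1, a magnesium transporter (2.15). By the difference of mean log2(TPM + 1), Tuba1c, Ldhb and Nlrp4f rose to 3.12, 4.39 and 4.12. All the others fell on that scale, among them Aven to 1.89 and Hhat to 1.27.

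Tuba1c was the most abundant of these after Ldhb and Nlrp4f. It ranged from 0 to 1561 TPM in Zp2-on cells (median 90.1) and from 0 to 455 TPM in Zp2-off cells (median 0.184), and was at 1 TPM or more in 23 of 30, 13 of 34 and 46 of 49 Zp3-positive cells. Its ratio lay between 2.28 and 3.23 with any 1 cell left out, and its close paralogs could have shared its reads. Aven had medians of 2.02, 0.238 and 53.7 TPM in the same order, with 17, 9 and 41 cells at 1 TPM or more, and its exons overlap those of Ryr3 on the other strand, so that reads of the 2 genes could not be told apart. Sox15 likewise overlaps Mpdu1, and among other genes named here Cd9, Cdk6, Rcc1l, Gm10718, Ube2c, Bmp6, Pou5f1, Npm2, Khdc3, Furin, Spdya and Sycp3 share exon sequence with a neighbour. Of the 12 genes, 10 had a higher mean in Zp3-positive than in Zp2-on cells, and the exceptions were Ocln, with means of 44.97 and 27.7 TPM in Zp2-on and Zp3-positive cells, and Slc41a1, with 28.3 and 10.9 TPM.

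Among the named genes lower in Zp2-on cells, Cd63 and Ccnb3 were found in most Zp2-off cells. Cd63, a tetraspanin of endosomes, ranged from 0 to 389.5 TPM in Zp2-off cells (median 78.5) and from 0 to 286 TPM in Zp2-on cells (median 0.416), with 30 of 34 and 13 of 30 cells at 1 TPM or more. Ccnb3, a cyclin of meiotic prophase that oocytes need at anaphase I, had medians of 51.2 and 4.29 TPM, and 31 of 34 and 18 of 30 cells at 1 TPM or more. The log2 ratios of these 2 genes were −2.07 (−2.68 to −1.96 with any 1 cell left out) and −2.03 (−2.30 to −1.91), and their means in Zp3-positive cells, 15.8 and 8.30 TPM, were lower still.

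Meioc, which keeps germ cells in prophase, had means of 6.96 TPM in Zp2-on, 33.6 TPM in Zp2-off and 3.39 TPM in Zp3-positive cells (log2 ratio −2.12). Msmo1, of cholesterol synthesis, had the largest lower ratio, −2.67, with medians of 0.426 and 1.39 TPM in Zp2-on and Zp2-off cells. Cdk6, a kinase of the G1 phase, followed at −2.29 with 4 of 30 and 17 of 34 cells at 1 TPM or more, and lay between −3.44 and −2.01 with any 1 cell left out. Also lower were Olfr1428 (−2.06), Dennd4c (−2.00, but −0.74 in counts scaled to a common total), Zfp266 (−1.99), Gm10718 (−1.99), Rasef (−1.92, and −2.84 to −1.77 with any 1 cell left out) and Rcc1l (−1.90), and each was found in cells of both sets. By the difference of mean log2(TPM + 1), Msmo1 stood at −1.56 and Olfr1428 at −1.21, while Cd63 and Ccnb3 stood at −3.25 and −2.91.

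**Figure D5:**
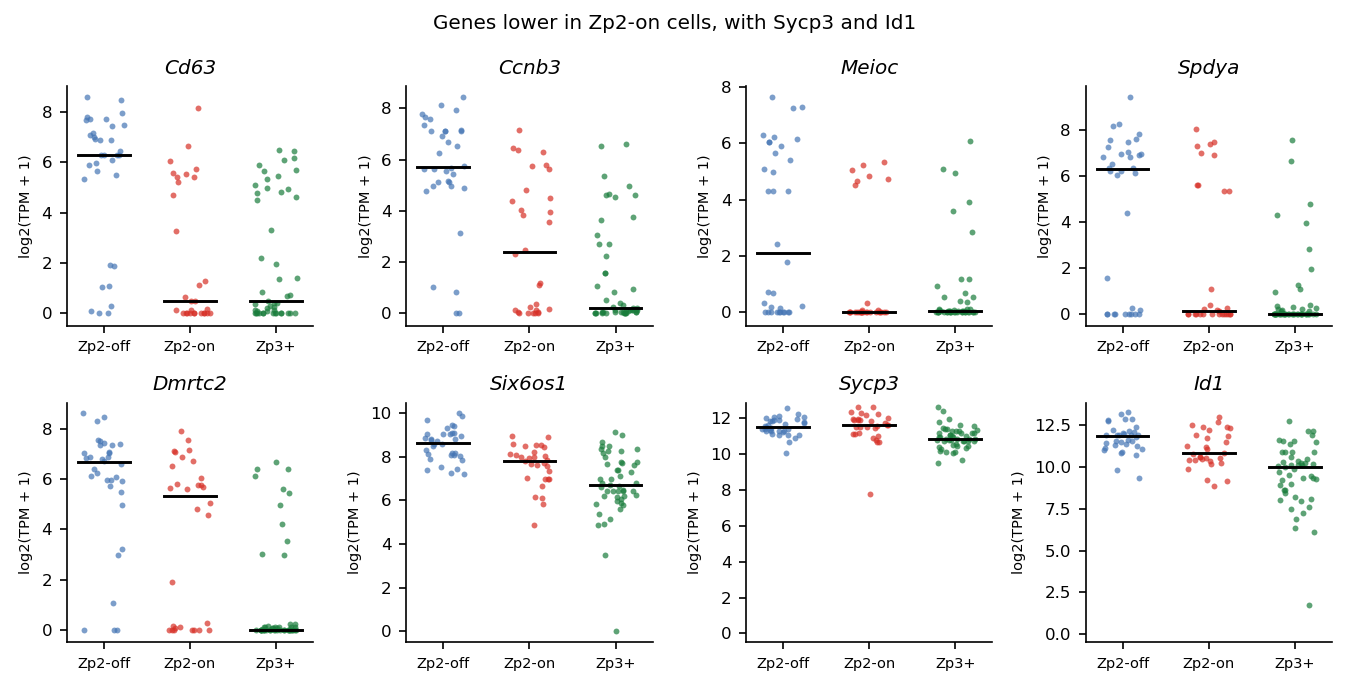
Genes lower in Zp2-on cells, with Sycp3 and Id1 for comparison, as log2(TPM + 1) in 34 Zp2-off, 30 Zp2-on and 49 Zp3-positive cells. Points are cells and bars are medians. Cd63 has a median of 78.5 TPM in Zp2-off and 0.416 TPM in Zp2-on cells, while Sycp3 stays at 2867 and 3144 TPM.

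Of 45 meiotic prophase genes measured, none was 2-fold higher in Zp2-on cells and 4 were at least 2-fold lower, a share near the 10.0% of all genes. The median log2 ratio was −0.29 against −0.03 for all genes. The 4 were Meioc, Spdya (−1.36), which ties telomeres to the nuclear envelope through CDK2, Msh5 (−1.04), of crossover formation, and Dmrtc2 (−1.03), a transcription factor of pachytene. Spdya was at 1 TPM or more in 11 of 30 Zp2-on, 23 of 34 Zp2-off and 9 of 49 Zp3-positive cells. Msh5 ranged from −2.10 to −0.56 with any 1 cell left out. Structural genes of the synaptonemal complex lay near the level of Zp2-off cells, with log2 ratios of 0.10 for Sycp3 and −0.20 for Sycp1, whereas Six6os1, of its central element, had medians of 224 and 399 TPM (−0.89).

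The secretory and glycosylation machinery that a zona protein passes through had 74 genes measured and a median log2 ratio of 0.06, and its single gene at 2-fold was Furin, the protease that cuts zona proteins at their C-terminal ends, whose ratio of 1.91 went to 0.87 without 1 cell. None of 8 Id and transient membrane genes reached 2-fold. Their median log2 ratio was 0.51, with Sdc1 at 0.98, Tspan13 at 0.89, Id2 at 0.66 and Id1 at −0.53. Id1, an inhibitor of helix-loop-helix factors, had medians of 1803 TPM in Zp2-on, 3641 TPM in Zp2-off and 1027 TPM in Zp3-positive cells, and a Spearman correlation with Zp2 of −0.48 over the 30 Zp2-on cells. Of 15 cell cycle genes measured, Wee2 (2.25), Ube2c (1.02) and Ccno (1.02) were at least 2-fold higher and Ccnb3 lower. The list median was 0.08, and between −0.03 and 0.18 with any 1 cell left out. It was 0.35 by the difference of mean log2(TPM + 1) and 0.27 per spike-in TPM.

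Depth did not separate the sets. Zp2-on cells had a median of 9427236 reads and Zp2-off cells of 8757619, medians of 12075 and 12184.5 genes, of 6.12% and 6.08% mitochondrial reads and of 0.416% and 0.482% spike-in reads. Germ cell markers summed to at least 1812 TPM in every cell of both sets. The 12 markers of pregranulosa cells summed to a median of 0.573 TPM in Zp2-on and 0.622 TPM in Zp2-off cells. Their highest sums were 63.8 and 81.6 TPM. Of the 3 pregranulosa markers measured, Gata4 was at least 2-fold higher in Zp2-on cells (log2 ratio 1.13). None was 2-fold lower, and the lowest ratio was −0.99. Globin mRNA, whose source in these cells was not tested, did differ. It summed to 100 TPM or more in 8 of 30 Zp2-on cells (median 24.3, highest 48544 TPM) and in 19 of 34 Zp2-off cells (median 247, highest 17249 TPM), while its mean was higher in Zp2-on cells, 3205 against 1819 TPM. In 1 Zp2-off cell stroma markers summed to 879 TPM, and 4 of 5 measured stroma genes were 2-fold lower in Zp2-on cells. Without that cell none of the 4 reached 2-fold, and the log2 ratio of Col3a1 went from −3.72 to 0.09. A total of 22 Zp2-on and 15 Zp2-off cells lay below 100 TPM of globin. Among these the log2 ratio was 4.37 for Nlrp5, 2.37 for Nlrp4f, 2.14 for Ldhb and 1.64 for Zbed3. The ratio of Padi6 fell from 3.59 to 1.81. It rose from 3.14 to 4.78 for Aven, from 2.59 to 4.49 for Ocln and from 2.87 to 4.52 for Gdf9. Meioc went from −2.12 to −3.41. The part of globin in the ratios of the other genes was not tested.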

How the data were processed

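RNA of single P0.5 germ cells was sequenced by Smart-seq2. By the submitters' processing notes reads were checked with FastQC and quantified with Salmon, with mm10 as the genome, and 92 spike-in sequences are listed among the genes. The authors deposited TPM and an estimated count for every gene of each library. The annotation release is not given in the sources used here, and reads of close paralogs may have been split. Libraries of Zp2-on and Zp2-off cells held 4102560 to 27057611 estimated reads, and the intervals give the precision this allows. The TPM of a cell share one total, so abundant mitochondrial, globin or spike-in RNA lowers all other genes.

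Of 52605 symbols, 28006 matched GENCODE M21 directly and others RefSeq, and 19766 nuclear coding genes were kept. Library pairs with a Pearson correlation above 0.95 were counted as 1 cell. Cells were grouped by the limits in the report and compared with no test, by means, log2 ratios (pseudocount 1 TPM, mean of at least 1 TPM in either set) and exact 95% intervals. Estimated counts served for depth, read sums and thinning. The software was Python 3.11.15, SciPy 1.17.1, NumPy 2.4.6, pandas 2.3.3 and matplotlib 3.10.9, and the calculation was tested on simulated data. Promoter sequences are RefSeq's (GRCm38.p6), and 11 of the 12 higher and 10 of the 12 lower genes chosen by the rule for names matched.

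Named genes, outside Ddx4, Sohlh1, Zp2 and Zp3, had in the higher set a mean of at least 10 TPM and at least 1 TPM in 50% of cells, a log2 ratio of at least 1 in size with any 1 cell left out, and a difference of mean log2(TPM + 1) of the same sign and at least 0.58. The 12 largest ratios per direction were chosen, of which 1 lower gene is not reported here, with members of the zona, factor, ligand and complex lists. Alternatives were other scales, limits, depths and cells. Members and lists were chosen with earlier results of these data known.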

Additional observations from a re-analysis of the deposited data

How the results depend on the processing

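The 24 genes chosen by rule kept their sign under every alternative run, which the rule itself required with any 1 cell left out and with the difference of mean log2(TPM + 1). Dennd4c lay below 2-fold in counts scaled to a common total, at −0.74. The 1043 higher and 1207 lower genes became 366 and 710 with the difference of mean log2(TPM + 1), which gives less weight to single high cells, and 2085 and 2450 at 1.5-fold. With cells below 100 TPM of globin only, an alternative chosen after seeing the data, 1764 genes were higher and 1559 lower, and per spike-in TPM 1222 were higher and 974 lower, so that under both more genes were higher than lower. Leaving out each cell in turn gave 983 to 1087 higher and 1171 to 1284 lower genes. The median log2 ratio of all genes went from −0.03 to −0.13 with the difference of mean log2(TPM + 1) and to 0.12 per spike-in TPM. The median log2 ratio of the oocyte-expressed families went from 1.43 to 2.88 with a pseudocount of 0.1 TPM and to 0.15 with no filter on the mean, where genes near 0 in both sets enter. Among cells with Zp3 below 0.1 TPM it was 0.80, and that of the subcortical maternal complex went from 1.32 to 0.79. The median of the complex was 0.89 with the difference of mean log2(TPM + 1) and 1.64 among cells with little globin. With 5 TPM as the limit, 1 cell in place of 3 held Zp3 without Zp2. The log2 ratio of Zp1 reversed from 1.20 to −0.67 among cells with little globin, and that of Bmp6 lay between −0.024 and 2.10 with 1 cell left out. With the difference of mean log2(TPM + 1), Tbpl2 went from 3.04 to 0.83, Padi6 from 3.59 to 1.07 and Gdf9 from 2.87 to 1.11. On that scale Nlrp5 went from 4.73 to 2.39, while Zbed3 rose from 1.69 to 2.82. The ratio of Tbpl2 lay between 2.33 and 3.08 with any 1 cell left out. The cause of the changes in Zp1 and Bmp6 was not tested. Counting every library as its own cell, and leaving out the cell with stroma markers, both also chosen after seeing the data, gave 1045 and 1039 higher genes. No paired analysis was possible because the labels give 1 group, in which numbers name cells. All cells come from 1 litter, and the spread between animals could not be measured.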

Other observations

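Fos, an early response gene of tissue dissociation, was at 1 TPM or more in 0 of 30 Zp2-on, 6 of 34 Zp2-off and 7 of 49 Zp3-positive cells. It was the single gene at 2-fold among 6 dissociation and stress genes measured, whose median log2 ratio was −0.32 and whose highest was 0.61. Within the Zp3-positive cells the level of Zp2 had a Spearman correlation of 0.63 with Ldhb, 0.49 with Tle6, 0.44 with Zbed3, −0.37 with Sohlh1 and −0.46 with Id1, and of −0.42 with the share of spike-in reads, over 49 cells of 1 sample.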
